A study of Mus musculus with 6 samples.

Results

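A group of 9 genes was described across every library of the series: the DNA methyltransferase genes Dnmt1, Dnmt3a, Dnmt3b and Dnmt3l, the Dnmt1 partner Uhrf1, the dioxygenase genes Tet1, Tet2 and Tet3, and the glycosylase gene Tdg. They were taken by symbol from the deposited gene table, in which all 9 were found among 19330 genes. RNA sequencing had been done on 6 mouse libraries, to compare induced pluripotent stem cells (iPSC) associated with palmitoylcarnitine (PC), a fatty acid ester of carnitine, with normal iPSC and with embryonic stem cells (ESC). The groups were 2 control iPSC lines, numbered 3 and 7, 2 PC iPSC lines, numbered 5 and 13, 1 ESC library titled B6 with the source name B6/blu, and 1 library of mouse embryonic fibroblasts (MEF).

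ESC and all iPSC lines were kept with leukemia inhibitory factor in serum-containing medium on MEF feeder cells that had been stopped from dividing with mitomycin C. RNA of those libraries can therefore include feeder RNA. The MEF library came from cells grown in medium with serum and no listed factor. The strain, the animals' age, the genotype, the reprogramming method and the dose and timing of PC are not stated in the labels. Whether the lines derive from different cultures or animals is not stated, and a p-value here therefore reflects the spread among these libraries, which may be technical. In bulk RNA, fewer cells of a type and less RNA per cell cannot be told apart.

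Mammalian DNA is methylated mostly at cytosines followed by guanine (CpG). Dnmt1 copies the pattern to the new strand at replication, where Uhrf1 recognises half-methylated sites and brings Dnmt1 to them, while Dnmt3a and Dnmt3b set new marks and Dnmt3l, which has no catalytic activity of its own, stimulates them. Tet1, Tet2 and Tet3 oxidise methylcytosine, and Tdg cuts out the later oxidation products so that base excision repair can restore plain cytosine. Embryonic stem cells are known for high Dnmt3b, Dnmt3l and Tet1.

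The libraries held 26.51 to 27.99 M assigned reads, and 16326 to 17463 genes had at least 1 read. Levels are given as RPKM, reads scaled by gene length and by the assigned total, so that genes can be compared within a library. Differences are log2 values from edgeR on the read counts, with a standard error (SE) and a p-value adjusted over 16435 tested genes. A gene is said to have passed the test at an adjusted p under 0.05. All 9 genes passed the filter on low counts. The ESC and MEF groups have 1 library each, which the model assumes to vary as much as the iPSC lines do.

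The labels were set against marker genes. All 17 pluripotency markers had reads in ESC and in every iPSC line, with summed levels of 4253 (PC iPSC 5) to 5788 RPKM (ESC). In the library labelled MEF, 8 of the 17 had no read and Nanog was at 0.0482 RPKM, but Pou5f1 stood at 157.7, Sox2 at 88.2 and Klf4 at 123.5 RPKM. Those are genes of the pluripotent state that the fibroblast label does not cover, although Klf4 is also a fibroblast gene. The 18 fibroblast markers summed to 8620 RPKM in MEF, and the same sum was 7.66% of that in ESC, 11.3% in control iPSC 3, 21.6% in control iPSC 7, 24.0% in PC line 5 and 19.9% in PC line 13. None of the 18 was at 0 in any library. Taken gene by gene, the median level was 5.66% of MEF in ESC and 7.35% to 12.0% in the lines, and single genes ran from 0.472% to 70.2% in the lines, so the sum does not measure a share of feeder cells. Genes on chromosome 11 stood apart in PC iPSC 5, by a median log2 difference of 0.43 from the other lines, and in ESC, by 0.26, and no gene of the 9 lies there.

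Upstream regions of 4 genes are shown as examples of genes that differed between the pluripotent libraries and MEF in either direction: Dnmt3l and Dnmt3b, which were higher in ESC and iPSC, and Dnmt3a and Tet3, which were higher in MEF. They were chosen after the values were seen. Each is the 250 bases before the first start in a set of RefSeq promoter windows on GRCm38.p6. They are in the gene's own direction, with every CpG in capitals. That start need not be the edge of the gene. The regions of Dnmt3a and Tet3 lie inside the gene spans, chr12:3801559-3914443 and chr6:83362373-83457208. The region of Dnmt3b ends inside its span, which starts at chr2:153649411.

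Dnmt3l, chr10:78042037-78042286, plus strand: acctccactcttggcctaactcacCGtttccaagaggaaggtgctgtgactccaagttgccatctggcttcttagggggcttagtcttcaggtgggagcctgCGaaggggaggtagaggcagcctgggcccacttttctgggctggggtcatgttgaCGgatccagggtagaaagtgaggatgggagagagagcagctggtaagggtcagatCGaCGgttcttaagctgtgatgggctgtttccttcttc
Dnmt3b, chr2:153649199-153649448, plus strand: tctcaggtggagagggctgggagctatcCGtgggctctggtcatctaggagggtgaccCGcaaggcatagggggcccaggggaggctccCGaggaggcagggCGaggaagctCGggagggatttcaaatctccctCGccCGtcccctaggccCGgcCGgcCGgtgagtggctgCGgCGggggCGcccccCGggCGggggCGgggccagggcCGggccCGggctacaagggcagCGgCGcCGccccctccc
Dnmt3a, chr12:3806730-3806979, plus strand: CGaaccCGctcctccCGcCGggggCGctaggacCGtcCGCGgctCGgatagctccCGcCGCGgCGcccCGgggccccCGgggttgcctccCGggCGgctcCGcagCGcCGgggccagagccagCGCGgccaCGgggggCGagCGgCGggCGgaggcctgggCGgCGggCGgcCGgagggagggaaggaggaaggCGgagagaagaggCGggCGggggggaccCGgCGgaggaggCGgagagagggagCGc
Tet3, chr6:83441679-83441928, minus strand: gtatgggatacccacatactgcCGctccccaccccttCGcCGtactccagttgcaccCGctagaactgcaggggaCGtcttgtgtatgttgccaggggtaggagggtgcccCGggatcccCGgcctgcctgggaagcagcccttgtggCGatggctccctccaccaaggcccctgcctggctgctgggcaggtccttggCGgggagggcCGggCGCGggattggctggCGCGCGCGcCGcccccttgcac

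The Dnmt3l region held 5 CpG, against 21 in that of Dnmt3b, 38 in Dnmt3a and 17 in Tet3. In windows of 300 bases, which reach 50 bases past the start, the 3 listed starts of Dnmt3l had 6, 4 and 3 CpG, and the median over all 32851 mouse windows was 7. Uhrf1 had 12 and 33 CpG at its 2 listed starts, Tet1 17, Tet2 57 and Tdg 26. Dnmt1 had 2, 12 and 33 at its 3 starts. These data count reads per gene, so they do not tell which start was used, and no methylation was measured. The motif GGGCGG, counted on both strands, was in 12 of the 16 windows of the 9 genes and in 35.7% of all windows, and CCAAT was in 6 of the 16 and in 37.4% of all. TATAAA and ATGCAAA were in none of the 16, against 13.6% and 4.63% of all windows. A match here is a description of letters and not a measured site.

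In the pluripotent libraries the genes stood in nearly the same order. Uhrf1 was highest, Dnmt3l next and Dnmt1 after it within ESC and within each of the 4 lines, although the ranges over lines of Dnmt3l and Dnmt1 overlapped. Tet1 followed Dnmt1 in all 5 of these libraries, Dnmt3a was last but one and Tet3 last. Tet2, Dnmt3b and Tdg filled the places between, and their ranges over lines overlapped. In MEF the order was turned: Dnmt3a was highest, followed by Tdg and Tet3, and Dnmt3l was last.

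**Figure D1:**
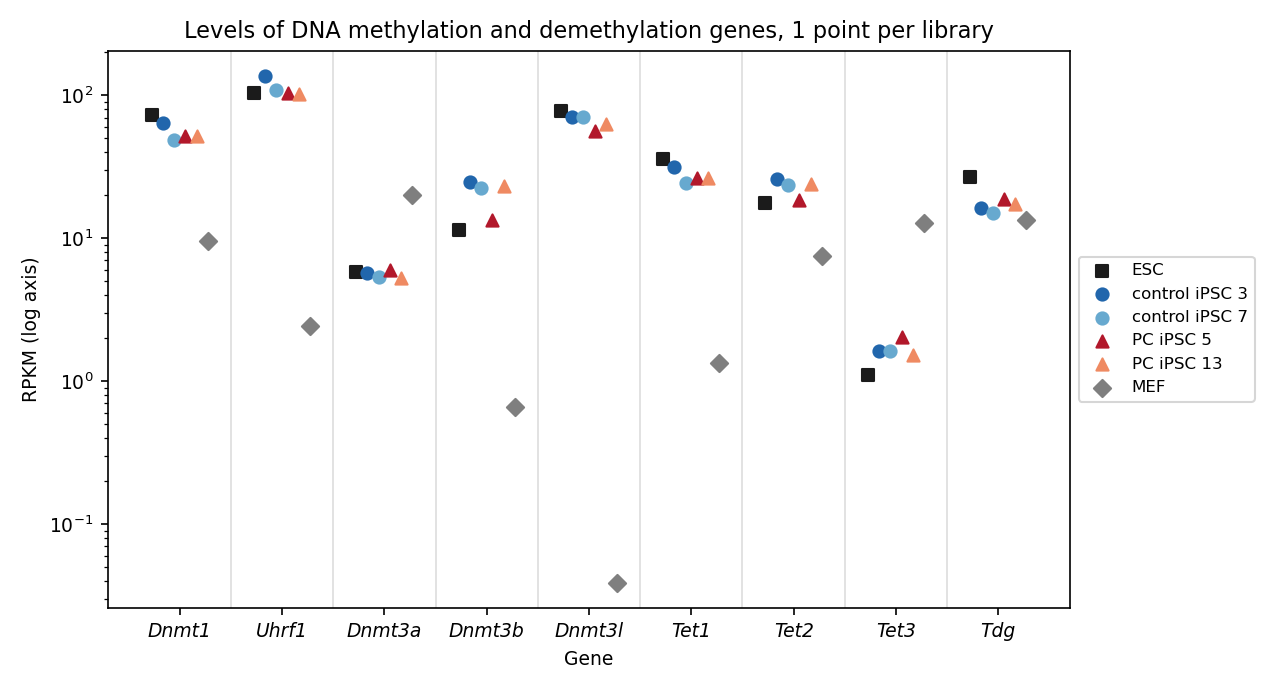
Level of each of the 9 genes in RPKM on a log axis, with 1 point per library. The MEF point is above the other 5 for Dnmt3a and Tet3 and below them for the other genes, and Dnmt3l in MEF, at 0.0390 RPKM, is the lowest point of the plot.

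Dnmt1, the maintenance methyltransferase (chr9:20907206-20959888, protein-coding), was at 72.5 RPKM in ESC, 63.7 and 48.6 in control lines 3 and 7, 52.2 and 52.3 in PC lines 5 and 13, and 9.62 in MEF. ESC was highest, every iPSC line was below it, the PC lines lay between the control lines, and MEF was far below all others. Dnmt1 was higher in iPSC than in MEF by 2.52 (SE 0.22, adjusted p = 9.53e-05), a fold of 5.72. Against ESC the iPSC mean differed by -0.46 (SE 0.18, adjusted p = 0.137), which did not pass the test although all 4 lines were on one side. PC against control lines gave -0.12 (SE 0.16, adjusted p = 0.963), and the value changed sign, to 0.0887, without control iPSC 3.

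Uhrf1, the factor that binds half-methylated DNA (chr17:56303337-56323486), was at 103.9 RPKM in ESC, 136.6 and 108.8 in control lines 3 and 7, 104.5 and 102.6 in PC lines 5 and 13, and 2.42 in MEF. Both PC lines were below both control lines, while ESC fell inside the range of the iPSC lines. Uhrf1 was higher in iPSC than in MEF by 5.56 (SE 0.25, adjusted p = 9.64e-06), a fold of 47.2 and so larger than that of Dnmt1. PC against control differed by -0.27 (SE 0.15, adjusted p = 0.963), with means of 103.5 ± 1.36 and 122.7 ± 19.6 RPKM (SD, n = 2 each). The iPSC mean differed from ESC by 0.08 (SE 0.17, adjusted p = 0.808), and by -0.0293 without control iPSC 3.

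The ratio of Uhrf1 to Dnmt1 in RPKM was 1.43 in ESC, 1.96 to 2.24 in the 4 lines and 0.252 in MEF. Dnmt1 was thus the higher of the pair only in MEF among these 6 libraries. The 16 replication and mitosis genes, whose products drive DNA copying and cell division, are given beside them: their summed level was 1505 RPKM in ESC, 1622 in control iPSC 3, 1393 in control iPSC 7, 1227 in PC line 5, 1440 in PC line 13 and 109.3 in MEF. Control iPSC 3 had the highest sum of the lines and the highest Dnmt1 and Uhrf1. The lowest sum was in PC iPSC 5, but in RPKM Dnmt1 was lowest of the lines in control iPSC 7 and Uhrf1 in PC iPSC 13. The part of that list in the Dnmt1 and Uhrf1 differences was not tested.

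Other genes of maintenance methylation were taken as a list. Of 11 listed partners 9 were in the table and tested, and in iPSC against MEF 6 rose, none fell and 3 did not pass, while 36.5% of all genes rose and 31.6% fell. Their median was 1.89 against 0.16 over all genes. Hells, a chromatin remodeller needed for DNA methylation, was higher by 4.68 (SE 0.23, adjusted p = 1.11e-05), at 94.4 ± 8.94 RPKM over the lines (SD, n = 4) and 3.73 in MEF. Lig1, the ligase of replication, was higher by 4.29 (SE 0.24, adjusted p = 1.74e-05) and Cdca7, the activator of Hells, by 3.06 (SE 0.26, adjusted p = 8.98e-05). None of the 9 passed the test against ESC or between PC and control lines, where Pcna, the replication clamp, had the largest value, -0.32 (SE 0.19, adjusted p = 0.963).

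Dnmt3a (chr12:3801559-3914443), one of the enzymes that set new marks, was at 5.84 RPKM in ESC, 5.69 and 5.40 in control lines 3 and 7, 5.96 and 5.27 in PC lines 5 and 13, and 20.02 in MEF. The 5 pluripotent libraries were nearly level, with a coefficient of variation of 5.47% over the lines, the smallest of the 9 genes, and MEF stood alone above them. Dnmt3a was lower in iPSC than in MEF by a log2 difference of -1.82 (SE 0.13, adjusted p = 3.73e-05), a level 3.54 times higher in MEF. Against ESC it differed by -0.11 (SE 0.14, 95% interval -0.44 to 0.22, adjusted p = 0.641). PC and control lines overlapped, with a difference of -0.01 (SE 0.13, 95% interval -0.30 to 0.29, adjusted p = 1).

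Dnmt3b (chr2:153649411-153687730), the other de novo enzyme, was at 11.4 RPKM in ESC, 25.0 and 22.5 in control lines 3 and 7, 13.4 and 23.2 in PC lines 5 and 13, and 0.658 in MEF, where 80 reads were counted. PC iPSC 5 was close to ESC, while the other 3 lines were about level with one another and higher. Dnmt3b was higher in iPSC than in MEF by 5.01 (SE 0.43, adjusted p = 9.05e-05), a fold of 32.2. Against ESC, all 4 lines were higher and the difference was 0.83 (SE 0.31, 95% interval 0.09 to 1.56, adjusted p = 0.130), short of the threshold. With 1 line left out it was 0.77 without control iPSC 3 and 0.86 without control iPSC 7. It was 0.99 without PC iPSC 5 and 0.59 without PC iPSC 13.

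Between PC and control lines, Dnmt3b differed by -0.39 (SE 0.26, 95% interval -1.01 to 0.23, adjusted p = 0.963). PC iPSC 5 carried that value: it was -0.0246 without this line and -0.87 without PC iPSC 13. On the scale of log2 counts scaled to library size, PC iPSC 5 was 0.65 below the mean of the lines for Dnmt3b, and the other lines were 0.16 to 0.29 above it. The same line was lowest for Tet2, 0.34 below the mean, and for Dnmt3l, 0.24 below it. On this scale PC iPSC 5 was also lowest for Uhrf1 (-0.143) and highest for Dnmt3a (0.057), Tet3 (0.220) and Tdg (0.137). Its median absolute deviation was 0.143 over the 9 genes and 0.194 over all tested genes, the latter the largest of the lines. PC iPSC 5 was also the line with the lowest replication sum, the lowest pluripotency sum, the highest fibroblast sum and the shift of chromosome 11, and the part of these in its Dnmt3b level was not tested.

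**Figure D2:**
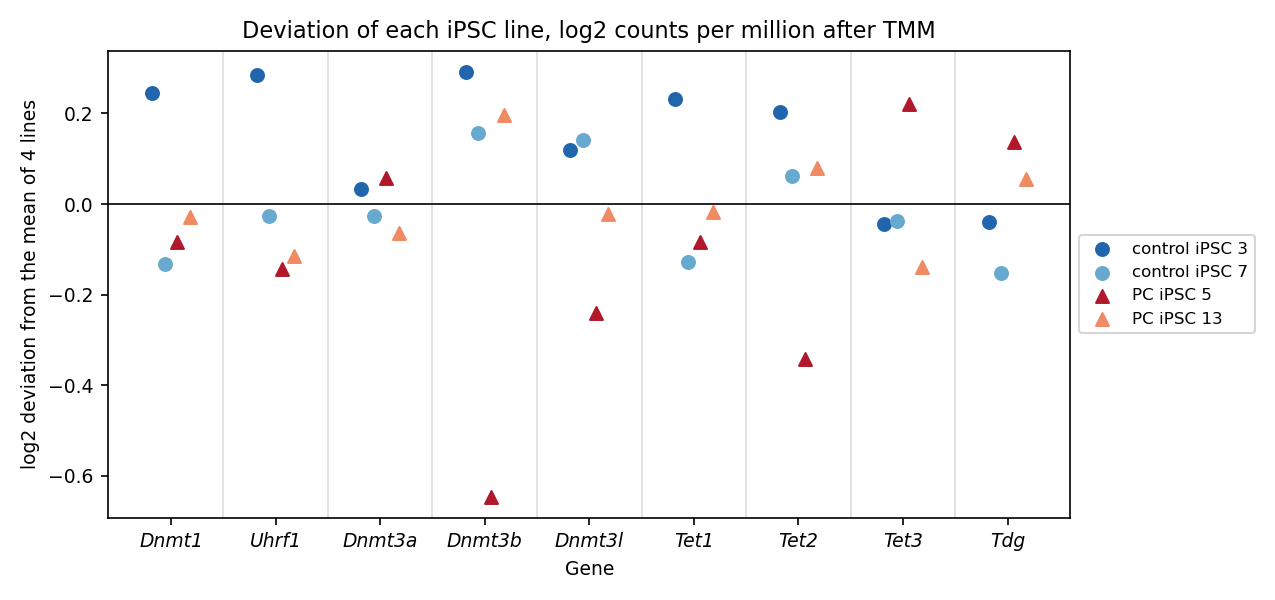
Deviation of each iPSC line from the mean of the 4 lines, in log2 counts scaled to library size after scaling, with 1 point per line. PC iPSC 5 is lowest for Dnmt3b, at 0.65 below the mean, and control iPSC 3 is highest for Dnmt1, Uhrf1, Dnmt3b, Tet1 and Tet2.

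Dnmt3l (chr10:78042287-78063622), the cofactor without catalytic activity, was at 77.4 RPKM in ESC, 70.7 and 71.0 in control lines 3 and 7, 56.8 and 63.5 in PC lines 5 and 13, and 0.0390 in MEF. ESC was highest, both PC lines were below both control lines, and MEF was at the edge of detection with 2 reads that covered 16.4% of the gene's length. The 4 lines together held 13062 reads, a level 1677 times that of MEF with a 95% counting interval of 464.2 to 13851. That interval covers counting error only and takes each read as a separate fragment, which may not hold for the 2 reads in MEF. The edgeR test passed with an adjusted p of 4.2e-06. PC against control differed by -0.26 (SE 0.13, adjusted p = 0.963), at 60.1 ± 4.78 and 70.9 ± 0.226 RPKM (SD, n = 2 each), and iPSC against ESC by -0.29 (SE 0.15, adjusted p = 0.239).

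Dnmt3l overlaps Aire, a gene on the opposite strand, and the labels do not say whether counting used strand, so reads in a shared stretch cannot be told apart. Aire was at 10.9 RPKM in ESC, 2.20 to 2.82 in the lines and listed at 0 in MEF, well under Dnmt3l in the libraries that have it. Dnmt3c, a close relative of Dnmt3b beside it on chromosome 2, and the pseudogenes Dnmt3a-ps1 and Dnmt3l-ps1 have no row in the table, so the fate of reads that match them is not known here.

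Per length, Dnmt3b and Dnmt3a changed places between the cell types. The ratio of Dnmt3b to Dnmt3a was 1.96 in ESC, 4.39 and 4.17 in control lines 3 and 7, 2.26 and 4.40 in PC lines 5 and 13, and 0.0329 in MEF. PC iPSC 5 was near ESC and apart from the other lines, as its Dnmt3b level makes it. The sum of both genes was 17.3 RPKM in ESC and 20.7 in MEF, which were made up of 33.8% and 96.8% Dnmt3a, and 19.4 to 30.7 RPKM in the lines. These ratios were not tested.

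**Figure D3:**
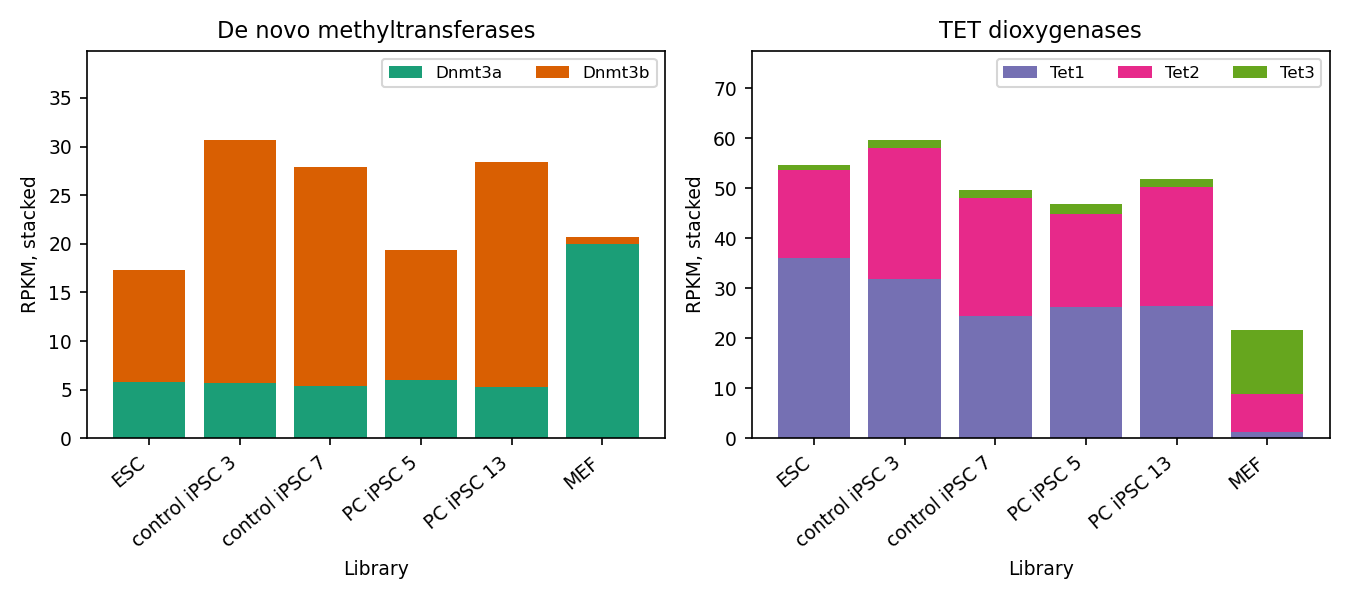
Stacked RPKM of Dnmt3a and Dnmt3b on the left and of Tet1, Tet2 and Tet3 on the right, with 1 bar per library. Dnmt3a makes up 96.8% of its bar in MEF and 18.5% to 33.8% in the other libraries, and Tet3 makes up 58.8% of its bar in MEF and 2.02% to 4.32% in the others.

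Among the oxidases, Tet1 (chr10:62804570-62887469) was at 36.0 RPKM in ESC, 31.8 and 24.5 in control lines 3 and 7, 26.3 and 26.5 in PC lines 5 and 13, and 1.35 in MEF. ESC was above all lines, the PC lines lay between the control lines, and MEF was lowest. Tet1 was higher in iPSC than in MEF by 4.36 (SE 0.25, adjusted p = 1.88e-05), a fold of 20.5. It differed from ESC by -0.44 (SE 0.17, adjusted p = 0.148) and between PC and control lines by -0.11 (SE 0.16, adjusted p = 0.963), the latter becoming 0.0895 without control iPSC 3.

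Tet2 (chr3:133463677-133545136) was at 17.6 RPKM in ESC, 26.2 and 23.5 in control lines 3 and 7, 18.5 and 23.8 in PC lines 5 and 13, and 7.57 in MEF. All lines were above ESC, PC iPSC 5 by the least, and PC and control lines overlapped. Tet2 was higher in iPSC than in MEF by 1.62 (SE 0.22, adjusted p = 0.000612), a fold of 3.08 and the smallest of the 6 genes that rose. Its differences of 0.34 from ESC (SE 0.20, adjusted p = 0.293) and of -0.25 between PC and control lines (SE 0.17, adjusted p = 0.963) did not pass.

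Tet3 (chr6:83362373-83457208) was at 1.11 RPKM in ESC, 1.64 and 1.63 in control lines 3 and 7, 2.02 and 1.52 in PC lines 5 and 13, and 12.7 in MEF. It was the lowest of the 9 genes in every pluripotent library, yet rested on 337 to 612 reads there. Tet3 was lower in iPSC than in MEF by a log2 difference of -2.88 (SE 0.16, adjusted p = 1.65e-05), 7.37 times higher in MEF. Against ESC all lines were higher, by 0.58 (SE 0.19, adjusted p = 0.106), and the difference was 0.66 without PC iPSC 13. Between PC and control lines it was 0.09 (SE 0.17, adjusted p = 0.971), and -0.0927 without PC iPSC 5.

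Tet3 and Dnmt3a are the genes of the 9 that MEF held at the highest level of all libraries, and the feeder cells are MEF as well. The fibroblast sums and medians given above were lowest in ESC, where Tet3 was lowest of the pluripotent libraries. They were highest of the lines in PC iPSC 5, where Tet3 was highest of the lines. However, PC iPSC 13, with the lowest Tet3 of the lines, had a sum above that of control iPSC 3. Dnmt3a was also highest of the lines in PC iPSC 5, at 5.96 RPKM. In ESC it was at 5.84, above control lines 3 and 7 (5.69 and 5.40) and PC iPSC 13 (5.27). Of the 18 fibroblast markers, 18 had a positive difference against ESC, beside 52.1% of all genes. The test was passed by 8, all higher, beside 4.71% of all genes that passed as higher. Their median over the 18 was 1.27, against 0.03 over all genes. Lum, a matrix proteoglycan, was higher by 2.65 (SE 0.44, adjusted p = 0.0214). The part of feeder RNA in the Tet3 and Dnmt3a levels was not tested.

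The summed TET level was 54.7 RPKM in ESC, 46.8 to 59.6 in the lines and 21.6 in MEF. Tet1 made up 65.8% of it in ESC, 49.4% to 56.2% in the lines and 6.24% in MEF, and Tet2 32.2%, 39.5% to 47.3% and 35.0%. The ratio of Tet1 to Tet2 was 2.04 in ESC, 1.21 and 1.04 in control lines 3 and 7, 1.42 and 1.11 in PC lines 5 and 13, and 0.178 in MEF. ESC thus had the most Tet1 relative to Tet2 of the 6 libraries, with PC iPSC 5 next. These ratios were not tested.

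Tdg (chr10:82629814-82650799), the glycosylase that acts after the oxidases, was at 26.9 RPKM in ESC, 16.3 and 14.9 in control lines 3 and 7, 19.0 and 17.3 in PC lines 5 and 13, and 13.4 in MEF. ESC was above all lines, both PC lines were above both control lines, and MEF was lowest by a small margin. Tdg was lower in iPSC than in ESC by a log2 difference of -0.72 (SE 0.14, adjusted p = 0.027), 1.65 times higher in ESC, and was the only one of the 9 to pass that test. The call was lost with limma on log2(RPKM + 0.5), at -0.66 (adjusted p = 0.0773), a fit that called only 3 genes of all in this comparison.

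Tdg was also the only one of the 9 that did not pass against MEF, at 0.35 (SE 0.15, adjusted p = 0.0699). PC against control gave 0.19 (SE 0.13, adjusted p = 0.963), at 18.1 ± 1.23 and 15.6 ± 0.969 RPKM (SD, n = 2 each). Tdg relative to the summed TET level was 0.492 in ESC, 0.273 to 0.406 in the lines and 0.620 in MEF. Glt8d2, which overlaps Tdg on the opposite strand, was at 14.9 RPKM in MEF and 0.210 to 0.359 in the other libraries, so the level of Tdg in MEF is uncertain if reads were counted without strand. The pseudogene Tdg-ps has no row in the table, and Gm9855, named as a Tdg pseudogene in RefSeq, held at most 0.0521 RPKM.

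The 9 genes were then read against all tested genes. Between PC and control lines none of the 9 passed, and 0.0% of all genes did. At an unadjusted p under 0.05 there were 0 of the 9 and 385 of all 16435 genes with edgeR, and DESeq2 and limma also called 0 genes. Without control iPSC 7, edgeR called 309 genes, none of the 9 among them. The PC and control lines did not overlap for Uhrf1, Dnmt3l and Tdg, 3 of 9, against 31.4% of all genes, so this count is near the background. The median difference of the 9 was -0.12, against 0 over all genes. Of the 9, 2 were positive, beside 49.6% of all genes. All 9 intervals included 0. The widest of them, for Dnmt3b, ran from -1.01 to 0.23 on the log2 scale.

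Against ESC, 1 of the 9 passed, none higher and 1 lower, while 10.4% of all genes passed, 4.71% higher and 5.71% lower. At an unadjusted p under 0.05 there were 5 of the 9 and 4899 of all genes. The count over all genes was 1713, and it was 2873 without control iPSC 3 and 2734 without control iPSC 7, while limma called 3 to 11. In 7 of the 9 genes the 4 lines were all above or all below ESC, the exceptions being Uhrf1 and Dnmt3a, against 66.5% of all genes. Dnmt3b, Tet2 and Tet3 were on the higher side, and Dnmt1, Dnmt3l, Tet1 and Tdg on the lower. The median size of the difference, sign aside, was 0.44 for the 9 and 0.41 for all genes.

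Against MEF, 8 of the 9 passed, 6 higher and 2 lower, and 68.1% of all genes passed, 36.5% higher and 31.6% lower. The share that passed is thus to be read against a background in which most genes passed. The median size of the difference was 2.88 for the 9 and 1.29 for all genes. Dnmt3l had a larger difference than 98.8% of all genes, Uhrf1 than 89.3% and Dnmt3b than 87.4%. The comparison rests on a single MEF library, whose Pou5f1, Sox2 and Klf4 levels are given above. Markers of macrophages and endothelium also differed in it: 7 of 9 were lower in iPSC than in MEF and 1, Pecam1, which pluripotent cells express too, was higher. Lyz2, of macrophages, was at 463.3 RPKM in MEF, 11.5 in ESC and 3.80 to 6.27 in the lines. Adgre1, which defines mouse macrophages, was at 17.2 RPKM in MEF and at most 0.165 in the other libraries. Cd68, also of macrophages, was higher in ESC than in MEF, at 55.2 and 37.2 RPKM, and at 7.77 to 13.8 in the lines. The part of such cells in the MEF levels of Dnmt3a, Tet3 and the other genes was not tested.

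**Figure D4:**
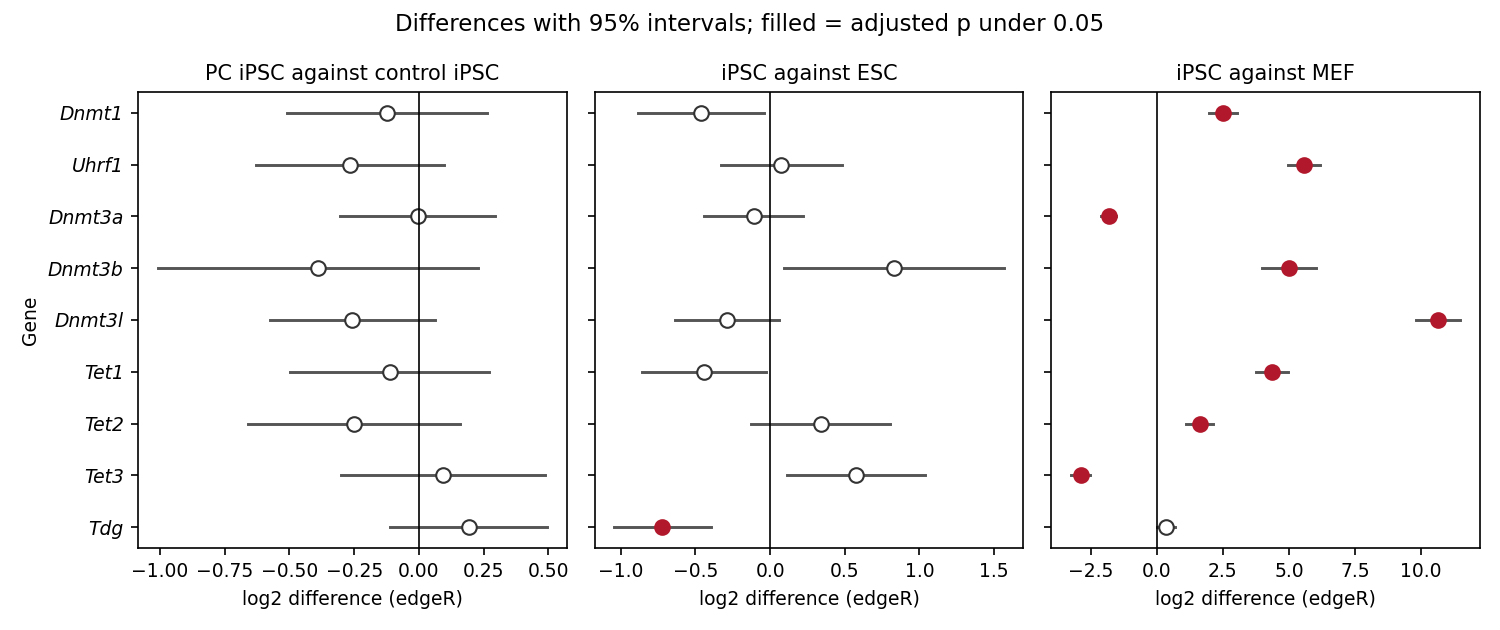
Log2 difference of each gene in 3 comparisons, with 95% intervals from edgeR and filled points at an adjusted p under 0.05. The horizontal scales differ: every interval on the left includes 0, only Tdg is filled in the middle, and all but Tdg are filled on the right.

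ESC and MEF, with 1 library each, were set side by side without a test. The level in ESC over that in MEF was 7.54 for Dnmt1, 42.9 for Uhrf1, 17.4 for Dnmt3b, 26.7 for Tet1, 2.33 for Tet2 and 2.01 for Tdg. The 95% counting intervals, of the reads only, were 7.15 to 7.95 for Dnmt1 and 13.9 to 22.0 for Dnmt3b. For Dnmt3l the ratio was 1983, with an interval of 548.6 to 16380 because of the 2 reads in MEF, which are taken as separate fragments. MEF was higher than ESC by 3.43 times for Dnmt3a and 11.5 times for Tet3. The directions were those of iPSC against MEF, and both comparisons use the same MEF library.

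Base excision repair, the route that follows Tdg, was represented by 16 genes, some of which are glycosylases for other lesions. Against MEF 14 rose and none fell, beside 36.5% and 31.6% of all genes, with a median of 1.47. Ung, which removes uracil, was higher by 5.82 (SE 0.23, adjusted p = 6.27e-06), at 46.5 ± 2.18 RPKM (SD, n = 4) and 0.831 in MEF. Mutyh, an adenine glycosylase, was higher by 4.78 (SE 0.40, adjusted p = 7.78e-05) and Neil2, a glycosylase for oxidised bases, by 4.12 (SE 0.38, adjusted p = 0.00012). Against ESC, Neil2 fell, with a log2 difference of -1.38 (SE 0.23, adjusted p = 0.0214). Neil2 was at 10.6 RPKM in ESC and 3.56 to 4.598 in the lines.

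Of the 8 readers of methylated CpG, 1 rose and 5 fell against MEF, beside 36.5% and 31.6% of all genes, with a median of -1.29. The share that passed, 6 of 8, is near the 68.1% of all genes. Zbtb4, a zinc finger protein that binds methylated DNA, differed by -2.86 (SE 0.15, adjusted p = 1.36e-05) and Mbd2, a reader that recruits a repressor complex, by -1.94 (SE 0.15, adjusted p = 5.59e-05). The one that rose was Mbd4, which is itself a glycosylase for mismatched thymine, by 2.84 (SE 0.22, adjusted p = 6.34e-05). None of the 8 passed against ESC or between PC and control lines.

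Regulators of the TET and DNMT3 enzymes, with the cytidine deaminases, made up a list of 23 genes, of which 21 were tested. Against MEF 13 rose and 5 fell, beside 36.5% and 31.6% of all genes, with a median of 1.15. Prdm14, a repressor of Dnmt3b in the pluripotent state, was at 12.0 ± 1.33 RPKM in the lines (SD, n = 4) and had no read in MEF, and Apobec2, of the deaminase family, was at 3.41 ± 1.12 RPKM (SD, n = 4) and 0.0587 in MEF (adjusted p = 0.000802). Against ESC, Zfp57, which protects methylation at imprinted loci, rose by 0.77 (SE 0.16, adjusted p = 0.0314), while Apobec1 (-1.08, SE 0.22, adjusted p = 0.0331) and Gadd45a (-0.88, SE 0.21, adjusted p = 0.0473) fell. Gadd45a has been linked to demethylation by repair.

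Dppa3, which hinders Uhrf1 from reaching DNA in oocytes and early embryos, varied widely between lines. It was at 96.5 RPKM in ESC, 18.8 and 22.6 in control lines 3 and 7, 76.7 and 13.9 in PC lines 5 and 13, and had no read in MEF. ESC and PC iPSC 5 were high, the libraries in which Dnmt3b was lowest among the pluripotent ones. The relation of Dppa3 to the Dnmt3b levels was not tested. Between PC and control lines the difference was 1.09 (SE 0.65, adjusted p = 0.963), and it did not pass.

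Of the 12 genes that supply or recycle methyl donors, 10 were tested. Against MEF 5 rose and 2 fell, with a median of 0.69, and this share is near the 68.1% of all genes that passed. Shmt1, of serine and folate metabolism, was higher by 4.57 (SE 0.27, adjusted p = 2.18e-05), Mthfd1, of the folate cycle, by 2.89 (SE 0.21, adjusted p = 4.35e-05), and Ahcy, which removes the product that inhibits methyltransferases, by 2.78 (SE 0.18, adjusted p = 2.85e-05). Against ESC, Mtr, which regenerates methionine, rose by 0.66 (SE 0.15, adjusted p = 0.0397) and Ahcyl2 fell, by a log2 difference of -0.78 (SE 0.18, adjusted p = 0.0432).

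Germline genes whose promoters are known to be silenced by methylation were taken as a further list. All 20 were tested, and 19 rose and none fell against MEF, beside 36.5% and 31.6% of all genes, and in MEF 11 of them had no read. Examples are Sohlh2, Rpl10l and Tuba3a, with means of 31.5 ± 2.97, 44.6 ± 20.1 and 22.9 ± 14.3 RPKM over the lines (SD, n = 4) and no read in MEF. With the 11 set to a floor of 3 reads in MEF the median log2 difference was 5.53. Against ESC 4 rose and none fell, beside 4.71% and 5.71% of all genes, with a median of 0.70, among them Sycp1, of the meiotic chromosome axis, by 2.67 (SE 0.29, adjusted p = 0.00882), Dazl, a germ cell RNA-binding protein, by 2.48 (SE 0.56, adjusted p = 0.0397), and Sohlh2, a germline transcription factor, by 1.16 (SE 0.19, adjusted p = 0.0203).

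Between PC and control lines none of the 20 passed, and 17 were positive, beside 49.6% of all genes. The median of the 20 was 0.35, against 0 over all genes. PC iPSC 5 was the highest of the 4 lines for 14 of the 20, against 4 for PC iPSC 13, 2 for control iPSC 7 and 0 for control iPSC 3. Over all tested genes PC iPSC 5 was also most often the highest line, for 37.3%, against 28.1% for control iPSC 3, 18.2% for PC iPSC 13 and 16.4% for control iPSC 7. Dazl was at 7.02 RPKM in ESC, 23.7 and 38.9 in control lines 3 and 7, 75.2 and 29.8 in PC lines 5 and 13, and 0.0241 in MEF. Fkbp6, a meiotic cochaperone, was at 6.31 and 8.21 in the control lines and 20.8 and 7.13 in PC lines 5 and 13. PC iPSC 5 is 1 library, and the relation of these levels to its Dnmt3b level was not tested.

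No other list had a gene past the threshold between PC and control lines. Examples of their values are -0.42 for Mutyh among repair genes (SE 0.23) and -0.24 for Mbd1 among readers (SE 0.19), each with an adjusted p of 0.963. Over all genes 49.6% were positive, with a median of 0. Of 16 replication genes 3 were positive, with a median of -0.23, and of 18 fibroblast markers 18 were positive, with a median of 0.36. The part of these lists in the values of the 9 genes was not tested.

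The genes most like each member in profile were found by the root mean square difference between centred log2(RPKM + 1) values over the 6 libraries, among 11984 genes with a mean of at least 1 RPKM. For Dnmt1 they were Clspn (0.0486), Cep85 (0.0642) and Kif18a (0.0675), and for Uhrf1 they were Gdf3 (0.127), Cdh1 (0.146) and Ogdhl (0.159). For Dnmt3a they were Dcaf10 (0.0330), Phf20l1 (0.0502) and Pik3r2 (0.0510). Dnmt3b was matched most closely by Cox6b2 (0.122), Nasp (0.127) and Mpzl2 (0.146). Nasp, a histone chaperone, was at 114.1 RPKM in ESC, 204.6 and 184.5 in control lines 3 and 7, 121.9 and 183.8 in PC lines 5 and 13, and 10.6 in MEF, a pattern that its choice by likeness to Dnmt3b fixes.

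Dnmt3l had Bex4 (0.151), Gldc (0.203) and Trim6 (0.221) as its nearest profiles. Tet1 had Lrrc34 (0.0901), Pif1 (0.0973) and Fancd2 (0.0977), Tet2 had Dnajc15 (0.0372), Ndufaf2 (0.0552) and Pwp2 (0.0575), and Tet3 had Lamb2 (0.0528), Hoxd12 (0.0568) and C4b (0.0582). Tdg was nearest to Mtfmt (0.0361), Ss18l1 (0.0600) and Ovgp1 (0.0638). Lamb2, a laminin chain, was at 11.7 RPKM in ESC, 14.4 to 17.3 in the lines and 81.6 in MEF. Mtfmt, of mitochondrial translation, was at 12.1 RPKM in ESC, 6.58 to 8.76 in the lines and 6.07 in MEF. These distances are a description over 6 libraries.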

How the data were processed

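Per the file headers, the deposited table holds uniquely assigned read counts, RPKM and the covered share of gene length, which can pass 100. Its count totals equal the headers' totals, and its RPKM recompute from count and length for all 9 genes. Per the submitters' processing notes, CASAVA 1.8.2 and mm10 were used, for steps they do not name. The aligner, counter, annotation and strand setting were not given in the sources used here. Among 1 to 20 reads, 62.4% to 67.5% of counts were even, so low counts may hold fewer separate fragments than their size.

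The test was that of edgeR 4.0.16 under R 4.3.3 on the counts (quasi-likelihood, TMM, filterByExpr) in a model of 4 group means over 6 libraries, with 2 residual degrees of freedom and Benjamini-Hochberg adjustment over 16435 genes. The code was tested on simulated data. Alternatives were RLE and upper-quartile scaling, DESeq2 1.42.0, other filters, limma 3.58.1 on log2 RPKM with pseudocounts of 0.1, 0.5 and 1, fewer libraries and leaving out each line. All library pairs differed by more than sampling noise. The 9 genes and the lists were chosen with earlier results of these data known. From each list, up to 3 genes past the threshold of largest difference were named per comparison, or otherwise the 1 largest value. A few genes this rule would name are not reported here. The 3 nearest profiles were named per gene, passing over predicted names. Positions and sequences are from RefSeq on GRCm38.p6 (mm10).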

Additional observations from a re-analysis of the deposited data

Results flagged for a closer look

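Dnmt3b in PC iPSC 5 stood apart from the other iPSC lines on the log2 RPKM scale. Its gap to the nearest line was 0.8328 of the whole range of the 4 lines, just past the limit of Dixon's test at the 95% level. On the RPKM scale the gap was 0.787 of the range, which is under the limit. The log2 scale was added after these values had been seen. Chance marks about 1 in 20 such groups, and 9 genes were checked on both scales.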

How the results depend on the processing

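No paired analysis was possible because the control lines (3 and 7) and the PC lines (5 and 13) share no number. For PC against control, none of the 9 genes passed under any alternative. Over all genes the count was 0 except without control iPSC 7, where it was 309 (range over left-out lines 0 to 309). The Dnmt3a difference changed sign with no filter (0.0026), a mean RPKM of at least 1 (0.0043) and limma at pseudocounts of 0.5, 0.1 and 1 (0.0150, 0.0159 and 0.0140). Over left-out lines Dnmt3a ran from -0.0621 to 0.0539, Dnmt1 from -0.30 to 0.0887, Tet1 from -0.28 to 0.0895 and Tet3 from -0.0927 to 0.26. For iPSC against ESC, Uhrf1 ran from -0.0293 to 0.15. Of the 9, limma called 0 at all 3 pseudocounts, and each left-out line gave 2 (range 2 to 2). Tdg had -0.66, -0.68 and -0.65 with limma (adjusted p = 0.0773, 0.0791 and 0.0774). Over all genes the ESC count of 1713 became 3, 3 and 11 with limma and ran from 1781 to 2873 over left-out lines. DESeq2 gave 55.3% of its calls as higher, against 45.2%. For iPSC against MEF, all 126 single-gene values kept direction and call. The median of all genes there was 0.16, and 0.07 with RLE scaling. The cause of these changes was not tested. With 2 lines per group and 1 library for ESC and MEF, few libraries limit the tests, and for Dnmt3l the 2 reads in MEF limit the ratio.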
